A study of Mus musculus with 106 samples.

Results

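The bone marrow of mice kept at 10 °C was compared with that of mice kept at 22 °C over every gene of the deposited bone marrow count table. The 12 libraries compared were the 12 of the series' 106 samples whose titles name bone marrow, 6 from each temperature. All mice were male, wild type C57BL/6J animals, 8 weeks old at the start and 11 weeks old by the labels' age field at sampling. The cold group, coded CE, was brought down through 18 °C and 14 °C, with 5 days on each step, and was then held at 10 °C for 2 weeks, and the control group, coded RT, stayed at 22 °C; the treatment field names 34 °C for 4 weeks in every sample, so the group was read from the title. Each library came from 1 mouse, animals shared cages in pairs, and the cage of each mouse is not given in the sources used here. The question put to these samples was how a tissue outside the thermogenic organs responds to mild cold.

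Bone marrow makes neutrophils and other granulocytes, monocytes, B lymphocytes, red cells and platelets from stem cells, within a stroma of reticular cells, vessels, macrophages, fat cells and bone cells. Neutrophils mature there through stages that each store their own granule proteins, and B cell precursors rearrange their immunoglobulin genes there before leaving. Red cell precursors build the heme pathway and the membrane skeleton in the same space, around macrophages. Levels below are CPM, a gene's counts brought to a common library total after scaling by the trimmed mean of M values (TMM). In bulk RNA of this kind, fewer cells of a type and less RNA per cell cannot be told apart. CPM are also relative: when genes with many counts fall, the CPM of other genes can rise. The part of this in the results was not tested.

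Libraries held 15591374 to 17834075 counts at 22 °C and 18220849 to 22139577 at 10 °C, so the depths of the groups did not overlap; the part of this gap in the results was not tested. Of the 23420 genes in the table, 5576 had no count in any library and 12525 passed the filter of an average log2 CPM above 0 and were tested. The gene with the most counts was the neutrophil gene S100a9 in 4 of the 22 °C libraries and the beta globin entry Beta-s in the other 8 libraries, and the 10 leading genes took 7.57 to 9.09% of each library. Skeletal muscle genes were present as a trace. The 26 muscle genes summed to 195 CPM in 22 °C replicate 3 and to 206 CPM in 10 °C replicate 4, against 59.9 to 130.2 CPM in the other 10 libraries. On the first principal component, which took 36.1% of the variance, 22 °C replicate 5 lay farthest out at -36.6 and 22 °C replicate 3 lay at 12.2, among the 10 °C libraries at 4.68 to 13.9.

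Among the cell types listed, most tested genes of neutrophils, monocytes and the interferon response were lower at 10 °C, and most of B cell precursors and red cell precursors were higher; the counts are given with each list below. At an adjusted p under 0.05 (edgeR, quasi-likelihood test, Benjamini-Hochberg), 918 genes were higher at 10 °C (7.33% of those tested) and 1459 were lower (11.6%). The changes were small: the median log2 fold change was 0.24 among genes called higher and -0.28 among genes called lower, against 0.01 over all tested genes. With the limits used in the study, p up to 0.05 without adjustment and more than 1.5-fold, 81 genes were higher (0.647%) and 81 were lower (0.647%). With that fold and an adjusted p under 0.05, 50 were higher (0.399%) and 66 lower (0.527%). Groups did not overlap for 334 higher genes (2.67% of those tested) and 397 lower genes (3.17%). The counts moved with single libraries: without 10 °C replicate 1, 517 genes were higher and 956 lower, and the higher count was also 605 to 610 without 22 °C replicate 1, 22 °C replicate 5 or 10 °C replicate 2. With both muscle-trace libraries left out, 1243 genes were higher and 1804 lower, and at the study's limits 187 and 159.

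In the plot of list members, the lists of secondary granule, mature neutrophil, interferon-stimulated and eosinophil genes have medians to the left of 0 and those of B cell precursors, red cell precursors and tissue macrophages to the right.

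**Figure D1:**
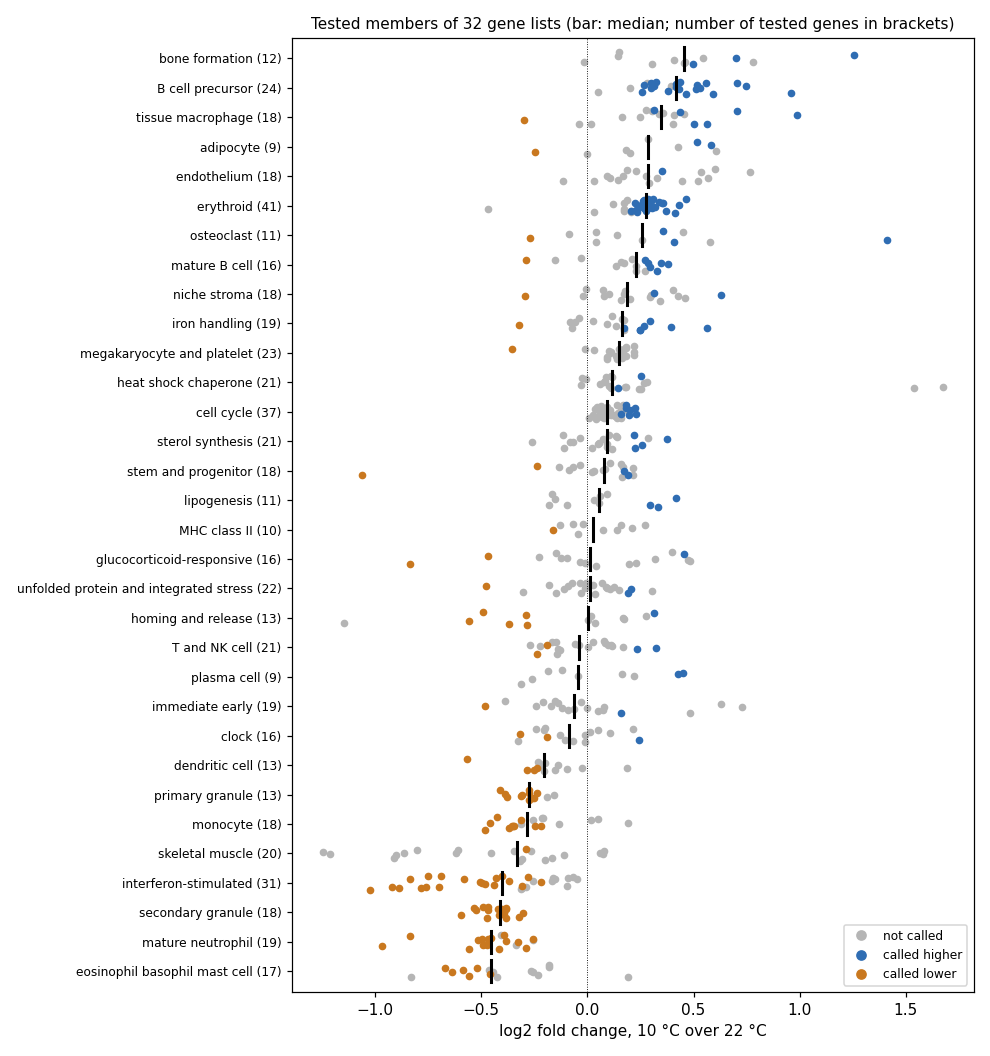
Each point is 1 tested gene of 32 gene lists, placed by its log2 fold change at 10 °C over 22 °C, with genes at an adjusted p under 0.05 coloured by direction and a bar at each list's median. The secondary granule median lies at -0.41 with all 18 genes called lower, and the B cell precursor median at 0.42 with 20 of 24 called higher; the median over all tested genes was 0.01.

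Most tested genes of each neutrophil list were called lower. Secondary granule genes, which encode proteins stored by myelocytes and later stages, were lower in 18 of 18 tested members (11.6% of all tested genes were called lower), with a median log2 fold change of -0.41 against 0.01 over all genes. Their summed level ran from 29742 to 44384 CPM at 22 °C (median 40273) and 27337 to 29125 CPM at 10 °C (median 28317), and every 10 °C library lay below every 22 °C library. Chi3l3, the chitinase-like lectin Ym1 (Chil3, chr3:106147554-106167564 on GRCm38), ran from 1978 to 2963 CPM at 22 °C (median 2766) and 1734 to 1910.1 CPM at 10 °C (median 1829) (log2 fold change -0.52, SE 0.08, adjusted p = 0.00325). Camp, the precursor of the antimicrobial peptide cathelicidin, ran from 2341 to 2991 CPM at 22 °C (median 2926) and 1948 to 2219 CPM at 10 °C (median 2114) (log2 fold change -0.40, SE 0.07, adjusted p = 0.00338). Neither gene overlapped between groups. Itgb2l, an integrin beta subunit, ran from 344 to 441 CPM at 22 °C (median 406) and 293 to 334 CPM at 10 °C (median 304) (log2 fold change -0.38, SE 0.06, adjusted p = 0.00296), and Orm1, an acute phase glycoprotein, from 16.5 to 24.7 CPM at 22 °C (median 22.9) and 12.2 to 16.3 CPM at 10 °C (median 14.8) (log2 fold change -0.60, SE 0.10, adjusted p = 0.00338); both also separated the groups. The iron-binding protein lactoferrin (Ltf) had a log2 fold change of -0.47, lipocalin 2 (Lcn2) of -0.49 and neutrophilic granule protein (Ngp) of -0.47, all called lower, while the collagenase Mmp8 had the smallest change of the list at -0.30.

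The primary granule list holds genes of promyelocyte granule proteins beside surface receptors and transcription factors. Its genes were lower in 11 of 13 tested members, with a median of -0.27. Their summed level ran from 4204 to 5308 CPM at 22 °C (median 4828) and 3756 to 4334 CPM at 10 °C (median 4154), so the groups overlapped and the gap between medians was smaller than for the secondary granules. Serpinb1a, an inhibitor of neutrophil serine proteases, ran from 266 to 324 CPM at 22 °C (median 314) and 233 to 255 CPM at 10 °C (median 246) (log2 fold change -0.32, SE 0.05, adjusted p = 0.00296), and Fcnb, the lectin ficolin B, from 222 to 291 CPM at 22 °C (median 244) and 179 to 211 CPM at 10 °C (median 195) (log2 fold change -0.38, SE 0.07, adjusted p = 0.00372); neither overlapped between groups. The cell surface receptors Igsf6 (log2 fold change -0.39, SE 0.07, adjusted p = 0.00392) and Clec12a (log2 fold change -0.27, SE 0.05, adjusted p = 0.00555) were lower too, as was Cebpe, the transcription factor of granulocyte maturation, at -0.41. The 2 members that did not pass the test were myeloperoxidase (Mpo, log2 fold change -0.19, SE 0.07, adjusted p = 0.0719) and neutrophil elastase (Elane, log2 fold change -0.16, SE 0.07, adjusted p = 0.137).

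Among mature neutrophil genes, 16 of 19 tested members were lower, with a median of -0.45, and their summed level ran from 27096 to 40649 CPM at 22 °C (median 35789) and 24545 to 27696 CPM at 10 °C (median 25712); 1 library of the 22 °C group, replicate 3, lay within the range of the 10 °C libraries. S100a8, a subunit of the calcium-binding protein calprotectin, ran from 8349 to 12380 CPM at 22 °C (median 10946) and 7426 to 8236 CPM at 10 °C (median 7777) (log2 fold change -0.47, SE 0.08, adjusted p = 0.00404). Fpr2, a receptor for formylated peptides, ran from 101 to 147 CPM at 22 °C (median 134) and 86.8 to 97.7 CPM at 10 °C (median 93.4) (log2 fold change -0.47, SE 0.07, adjusted p = 0.00296). Both separated the groups, as did 1100001G20Rik (Wfdc21), which ran from 186 to 299 CPM at 22 °C (median 239) and 162 to 179 CPM at 10 °C (median 169) (log2 fold change -0.51, SE 0.08, adjusted p = 0.00304). Il1r2, the decoy receptor for interleukin 1, ran from 30.2 to 60.1 CPM at 22 °C (median 47.4) and 22.8 to 32.2 CPM at 10 °C (median 25.8) (log2 fold change -0.84, SE 0.15, adjusted p = 0.00392), with overlapping ranges. Wfdc17, a protease inhibitor family member, ran from 9.87 to 21.4 CPM at 22 °C (median 14.2) and 6.50 to 9.08 CPM at 10 °C (median 7.72) (log2 fold change -0.97, SE 0.18, adjusted p = 0.0041), and all of its 10 °C values lay below its 22 °C values. Receptors that act in release from marrow moved the same way: Cxcr2, which draws neutrophils to the blood, had log2 fold change -0.56, SE 0.12, adjusted p = 0.00814, and Csf3r, the receptor for granulocyte colony-stimulating factor, log2 fold change -0.49, SE 0.11, adjusted p = 0.00903. The members that did not pass the test were Trem1 at -0.41, Il1b at -0.34 and Ccl6 at -0.26. The ratio of mature neutrophil to secondary granule levels lay between 0.849 and 1.01 at 22 °C and between 0.898 and 0.951 at 10 °C, so it overlapped between groups, and the ratio of secondary to primary granule levels had a median of 7.68 at 22 °C and 6.89 at 10 °C, with ranges of 7.07 to 9.76 and 6.44 to 7.75.

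**Figure D2:**
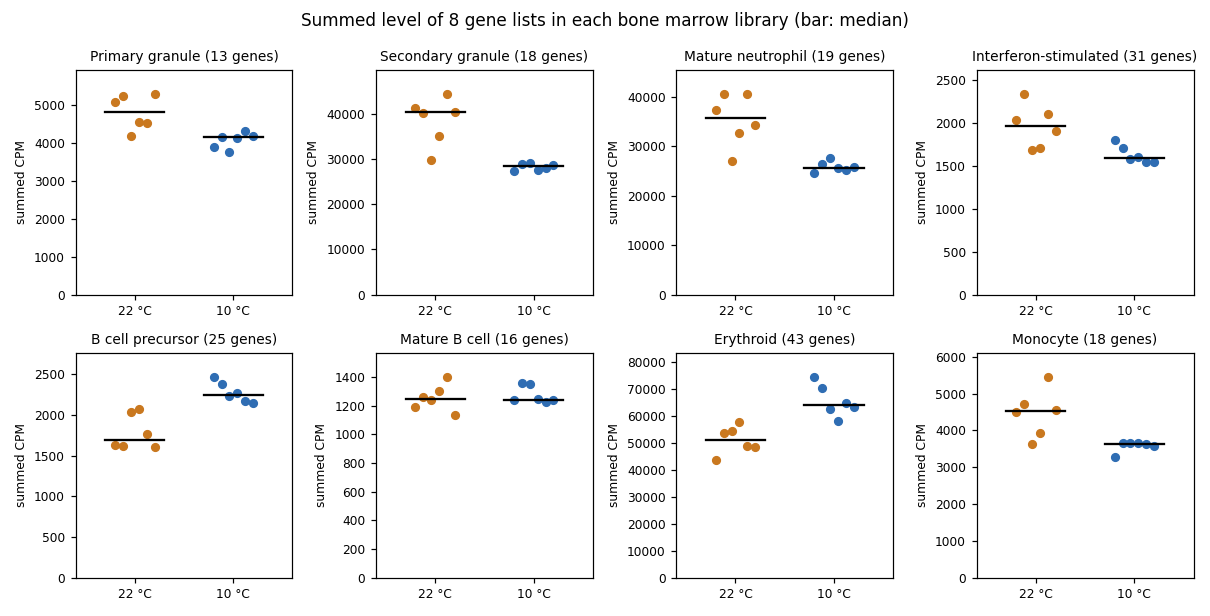
Summed CPM of 8 gene lists in each library, 6 libraries per temperature, with a bar at the median and the vertical axis starting at 0. The secondary granule sum is at most 29125 CPM in every 10 °C library and at least 29742 CPM in every 22 °C library. The erythroid sum is at least 58256 CPM in every 10 °C library and at most 57644 CPM in every 22 °C library. It includes the beta globin entry Beta-s, whose value is uncertain.

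Monocyte genes fell in 10 of 18 tested members, with none higher, at an unadjusted p under 0.05 either, and a median of -0.28; their summed level ran from 3625 to 5449 CPM at 22 °C (median 4531) and 3292 to 3663 CPM at 10 °C (median 3641), with overlap. Ly6c2, the surface protein of classical monocytes, ran from 335 to 529 CPM at 22 °C (median 463) and 304 to 338 CPM at 10 °C (median 328) (log2 fold change -0.46, SE 0.09, adjusted p = 0.00468), and Ms4a6c from 94.0 to 157 CPM at 22 °C (median 129) and 82.0 to 105 CPM at 10 °C (median 93.4) (log2 fold change -0.43, SE 0.10, adjusted p = 0.0112). Mpeg1, a pore-forming protein of phagocytes (log2 fold change -0.31, SE 0.07, adjusted p = 0.00974), Klf4, a transcription factor of monocyte development (log2 fold change -0.48, SE 0.12, adjusted p = 0.0128), and Ccr2, the chemokine receptor that monocytes need to leave marrow (log2 fold change -0.37, SE 0.10, adjusted p = 0.0226), were also lower. Among markers of nonclassical monocytes, Treml4 had a log2 fold change of 0.02, Nr4a1 of 0.05, Cx3cr1 of -0.21 and Ace of -0.31, none past the adjusted test. The count of monocyte genes called lower was 5 without 10 °C replicate 1 and 6 without 10 °C replicate 2 or 22 °C replicate 2, and Ccr2 lost its call without 10 °C replicate 1 (adjusted p = 0.0568 in edgeR's quasi-likelihood test).

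Eosinophil, basophil and mast cell genes were lower in 6 of 17 tested members with none higher (median -0.45). Their summed level was 7303 CPM in 22 °C replicate 5, 3490 to 4459 CPM in the other 22 °C libraries and 2990 to 3492 CPM at 10 °C, so that library stood far above all others and only 1 of the other 22 °C libraries touched the 10 °C range. Ear6, an eosinophil ribonuclease, ran from 51.0 to 121 CPM at 22 °C (median 56.9) and 37.0 to 46.6 CPM at 10 °C (median 43.9) (log2 fold change -0.64, SE 0.18, adjusted p = 0.0241), and without 22 °C replicate 5 its log2 fold change was -0.38. Siglec5, the eosinophil receptor Siglecf, ran from 23.7 to 40.8 CPM at 22 °C (median 27.2) and 18.8 to 21.9 CPM at 10 °C (median 21.2) (log2 fold change -0.46, SE 0.11, adjusted p = 0.012). The groups of both genes did not overlap. Hdc, which makes histamine in basophils and mast cells, had log2 fold change -0.67, SE 0.13, adjusted p = 0.00548. Major basic protein (Prg2, log2 fold change -0.46, SE 0.16, adjusted p = 0.0615) and eosinophil peroxidase (Epx, log2 fold change -0.44, SE 0.16, adjusted p = 0.0647) did not pass, nor did the eotaxin receptor Ccr3, at 0.19. The count of 6 was 3 without 10 °C replicate 1 or 10 °C replicate 2, and Ear6 then had adjusted p values past 0.05 (0.0589 without 10 °C replicate 1). Dendritic cell genes were lower in 4 of 13 members (Siglech, Itgax, Klk1 and Flt3; median -0.21), and the ranges of their summed levels overlapped at 264 to 309 CPM and 229.6 to 271 CPM.

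Tissue macrophage genes were positive in sign for 16 of 18 tested members. Of the 18, 6 were higher (7.33% of all tested genes were called higher) and 1 was lower, with a median of 0.35, and the summed level ran from 1445 to 2153 CPM at 22 °C (median 1903) and 1971 to 2369.8 CPM at 10 °C (median 2206), with overlap. Cd163, the receptor that clears haptoglobin-bound hemoglobin, ran from 40.2 to 73.9 CPM at 22 °C (median 56.2) and 73.8 to 113 CPM at 10 °C (median 92.9) (log2 fold change 0.70, SE 0.14, adjusted p = 0.00555). Hmox1, which degrades heme, ran from 113 to 252 CPM at 22 °C (median 159) and 228 to 281 CPM at 10 °C (median 264) (log2 fold change 0.56, SE 0.16, adjusted p = 0.0286), and Mertk, a receptor for dying cells, from 12.1 to 26.1 CPM at 22 °C (median 21.2) and 25.3 to 33.2 CPM at 10 °C (median 28.8) (log2 fold change 0.50, SE 0.15, adjusted p = 0.0348). The other members called higher were Folr2, Mrc1 and Vcam1, and the member called lower was Pld4 (log2 fold change -0.30, SE 0.07, adjusted p = 0.012); the complement genes C1qa, C1qb and C1qc had log2 fold changes of 0.28, 0.25 and 0.30 and did not pass. The count of 6 fell to 1 without 22 °C replicate 2, 10 °C replicate 1 or 10 °C replicate 2, to 2 without 22 °C replicate 6 or 10 °C replicates 3, 5 or 6, and to 3 without 22 °C replicate 5, and it was 11 with both muscle-trace libraries left out. Cd163 kept its call in each of these.

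Interferon-stimulated genes, whose products block viral replication and which also run at a basal level in resting marrow, were lower in 20 of 31 tested members with none higher, and all 31 had a negative log2 fold change (median -0.40). Their summed level ran from 1685 to 2339 CPM at 22 °C (median 1968) and 1540.5 to 1802 CPM at 10 °C (median 1589), with overlap. Oas2, which makes the 2'-5'-linked oligoadenylates that activate RNase L (chr5:120730333-120749853 on GRCm38), ran from 26.4 to 50.9 CPM at 22 °C (median 42.0) and 17.0 to 24.8 CPM at 10 °C (median 18.4) (log2 fold change -1.02, SE 0.15, adjusted p = 0.00296). Rtp4 ran from 11.7 to 26.4 CPM at 22 °C (median 19.1) and 9.26 to 11.3 CPM at 10 °C (median 9.90) (log2 fold change -0.89, SE 0.15, adjusted p = 0.00372) and Oasl2, a related family member, from 36.0 to 82.8 CPM at 22 °C (median 59.6) and 27.7 to 33.8 CPM at 10 °C (median 30.8) (log2 fold change -0.92, SE 0.16, adjusted p = 0.00397). None of the 3 overlapped between groups. The nucleic acid sensor Zbp1 (log2 fold change -0.75, SE 0.13, adjusted p = 0.00358) and the dynamin-like GTPase Mx1 (log2 fold change -0.69, SE 0.12, adjusted p = 0.00383) also separated the groups, and the transcription factor Irf7 (-0.40) was called lower. Members with the values nearest 0 were Ifi47 -0.05, Ifit2 -0.07, Rsad2 -0.09 and Cmpk2 -0.09, none past the test. The ratio of interferon-stimulated to secondary granule levels was 0.0473 to 0.0581 at 22 °C and 0.0537 to 0.0659 at 10 °C. Leaving out any 1 library gave 17 to 22 members called lower.

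The interferon-stimulated response element is the promoter sequence through which interferon signalling and the interferon regulatory factors act, and its core can be written as GAAA, 2 bases of any kind, and GAAA again. The 250 bases before the start of each gene in RefSeq (GRCm38.p6) were searched for these letters on both strands, and overlapping matches were kept. Of the tested genes with a promoter entry, 307 of 9372 held a match (3.28%). A promoter entry was found for 22 of the 31 interferon-stimulated genes, and 11 of these held a match: 7 of the 12 called lower and 4 of the 10 not called. These letters were in 1 of 15 secondary granule promoters, 1 of 20 B cell precursor promoters and 1 of 27 erythroid promoters. A match is a description of the letters. The windows of 60 bases around the matches are shown for 6 genes called lower, 5′ to 3′ on the transcribed strand, with the matched letters in capitals (TTTC, 2 bases and TTTC where the match is on the opposite strand). They lie at chr5:120907526-120907585 (minus strand) for Oas1a, chr5:120777700-120777759 (minus strand) for Oas3, chr8:71537568-71537627 (minus strand) for Bst2, chr3:142620579-142620638 (plus strand) for Gbp2, chr3:142559974-142560033 (plus strand) for Gbp3 and chr19:34640760-34640819 (plus strand) for Ifit1.
Oas1a: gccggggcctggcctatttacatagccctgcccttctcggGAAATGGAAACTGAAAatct
Oas3: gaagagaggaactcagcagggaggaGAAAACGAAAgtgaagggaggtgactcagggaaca
Bst2: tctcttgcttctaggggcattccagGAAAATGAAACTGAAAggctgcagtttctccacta
Gbp2: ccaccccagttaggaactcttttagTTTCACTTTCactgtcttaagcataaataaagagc
Gbp3: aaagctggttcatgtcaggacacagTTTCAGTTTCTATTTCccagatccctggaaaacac
Ifit1: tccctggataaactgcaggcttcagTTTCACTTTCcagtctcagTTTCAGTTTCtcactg
The log2 fold changes of these 6 genes at 10 °C were -0.83 for Oas1a, -0.44 for Oas3, -0.28 for Bst2, -0.48 for Gbp2, -0.37 for Gbp3 and -0.51 for Ifit1. In the Oas1a, Oas3 and Bst2 windows the letters read on the transcribed strand and in the Gbp2, Gbp3 and Ifit1 windows on the opposite strand; the Oas1a, Bst2 and Gbp3 windows each hold 2 overlapping matches and the Ifit1 window 2 separate ones.

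B cell precursor genes rose in relative level. Of 24 tested members 20 were higher and none lower, with a median of 0.42, and all 24 had a positive log2 fold change; the summed level ran from 1608 to 2079.8 CPM at 22 °C (median 1699) and 2153 to 2468 CPM at 10 °C (median 2248), and the groups did not overlap. Vpreb1, a part of the surrogate light chain of the pre-B cell receptor (chr16:16868403-16870843), ran from 7.78 to 11.3 CPM at 22 °C (median 8.80) and 15.0 to 22.7 CPM at 10 °C (median 17.1) (log2 fold change 0.96, SE 0.12, adjusted p = 0.00176). Dntt, the terminal transferase that adds bases at immunoglobulin joints (chr19:41029275-41059525), ran from 38.9 to 55.0 CPM at 22 °C (median 45.1) and 67.0 to 94.6 CPM at 10 °C (median 74.7) (log2 fold change 0.75, SE 0.09, adjusted p = 0.00113). Lef1, a transcription factor of pro-B and pre-B cells (chr3:131110471-131224356), ran from 13.1 to 19.0 CPM at 22 °C (median 16.1) and 24.3 to 27.9 CPM at 10 °C (median 26.9) (log2 fold change 0.71, SE 0.08, adjusted p = 0.00113). The groups of these 3 genes did not overlap. Blnk, an adaptor of the pre-B cell receptor, ran from 55.8 to 72.9 CPM at 22 °C (median 60.1) and 78.5 to 95.1 CPM at 10 °C (median 79.7) (log2 fold change 0.42, SE 0.08, adjusted p = 0.0042), and the other surrogate light chain part Igll1 had a log2 fold change of 0.59 and was called higher. The recombinases Rag1 and Rag2 had 0.46 and 0.44, the signalling chains Cd79a and Cd79b 0.43 and 0.31, and the lineage factors Ebf1 and Foxo1 0.38 and 0.26, all called higher. Members not past the test were Pax5 0.39, Il7r 0.28, Sox4 0.20 and Cd93 0.05. Leaving out any 1 library gave 18 to 22 members called higher.

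Mature B cell genes had fewer calls. Of 16 tested members 6 were higher and 1 was lower, with a median of 0.23, while the summed level ran from 1133 to 1401 CPM at 22 °C (median 1250) and 1226 to 1361 CPM at 10 °C (median 1241) and overlapped. Ccr7, the receptor that guides lymphocytes to lymph nodes, ran from 13.6 to 18.1 CPM at 22 °C (median 14.8) and 18.5 to 21.4 CPM at 10 °C (median 18.9) (log2 fold change 0.35, SE 0.07, adjusted p = 0.00657), and Cd38 from 27.3 to 37.0 CPM at 22 °C (median 32.8) and 37.1 to 47.9 CPM at 10 °C (median 38.9) (log2 fold change 0.33, SE 0.08, adjusted p = 0.0137); neither overlapped between groups. The ratio of precursor to mature B cell levels was 1.26 to 1.64 at 22 °C and 1.65 to 1.99 at 10 °C. The count of 6 was 2 without 22 °C replicates 1, 2 or 6 or 10 °C replicates 1 or 2, and 3 without 10 °C replicate 3, and the 1 lower was lost without 22 °C replicates 2 or 5 or 10 °C replicates 1, 2, 5 or 6. Of 9 tested plasma cell genes, Mzb1, a chaperone of immunoglobulin assembly (log2 fold change 0.45, SE 0.09, adjusted p = 0.00555), and Slamf7 (log2 fold change 0.42, SE 0.09, adjusted p = 0.0058) were higher, and Jchain (Igj) had -0.26 without passing; immunoglobulin constant and variable genes were not analysed here. T and NK cell genes had 2 members higher (Cd8b1 and Lck) and 2 lower (Il2rb and Nkg7) of 21, with a median of -0.04. These are 9.52% in each direction, against 7.33% higher and 11.6% lower over all tested genes. Nkg7 is also counted in the primary granule list. Each of these 4 calls was lost without at least 6 single libraries in turn. MHC class II genes had 1 of 10 called lower (H2-DMa, -0.16) and none higher; none was lower without 22 °C replicate 1 or 10 °C replicates 5 or 6, 2 were lower without 22 °C replicate 6, and 2 were higher without 22 °C replicate 3 and 1 without 22 °C replicate 4.

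**Figure D3:**
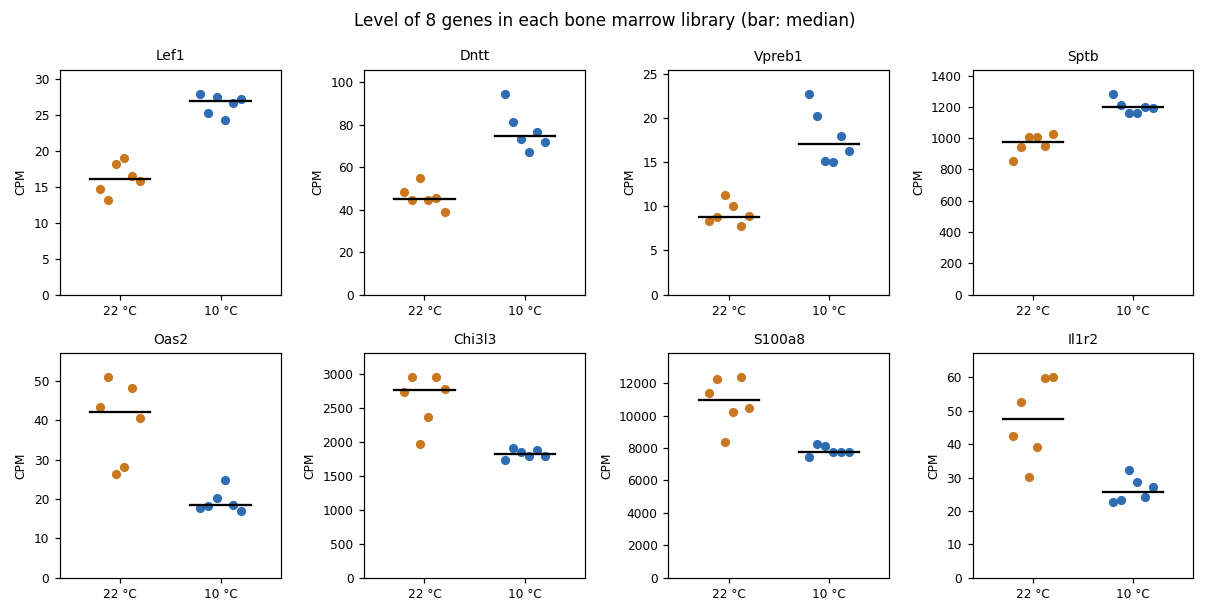
CPM of 8 genes in each library, 6 libraries per temperature, with a bar at the median and the vertical axis starting at 0. Lef1, Dntt, Vpreb1 and Sptb have every 10 °C library above every 22 °C library, Oas2, Chi3l3 and S100a8 have every 10 °C library below, and Il1r2 has a median of 47.4 CPM at 22 °C and 25.8 CPM at 10 °C.

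Red cell precursor genes rose together in relative level by small amounts. Of 41 tested members 32 were higher and none lower, with a median of 0.27 and 40 of 41 positive; the summed level ran from 43816 to 57644 CPM at 22 °C (median 51165) and 58256 to 74432 CPM at 10 °C (median 64067), without overlap. Sptb, the beta spectrin of the red cell membrane skeleton, ran from 853 to 1024 CPM at 22 °C (median 978) and 1158 to 1284 CPM at 10 °C (median 1198) (log2 fold change 0.32, SE 0.05, adjusted p = 0.00304). Trim58, a ubiquitin ligase of late erythroblasts, ran from 59.5 to 79.7 CPM at 22 °C (median 68.0) and 83.6 to 94.8 CPM at 10 °C (median 88.1) (log2 fold change 0.37, SE 0.06, adjusted p = 0.00304). Car2, carbonic anhydrase 2, which osteoclasts also use, ran from 2146 to 2546 CPM at 22 °C (median 2391) and 2776 to 3378 CPM at 10 °C (median 3019.9) (log2 fold change 0.35, SE 0.06, adjusted p = 0.00338), and Rhd, a Rhesus family protein, from 401 to 491 CPM at 22 °C (median 473) and 509.6 to 670.2 CPM at 10 °C (median 597) (log2 fold change 0.35, SE 0.06, adjusted p = 0.00424). All 4 separated the groups. The anion exchanger Slc4a1 had a log2 fold change of 0.29, Alas2, the first enzyme of heme synthesis in red cells, 0.41, ferrochelatase (Fech), the last enzyme of heme synthesis, 0.29, and the erythropoietin receptor Epor 0.29, all called higher. The factors Gata1 (0.29) and Gfi1b (0.28) were called higher, and Klf1 (0.20), Nfe2 (0.03) and the transferrin receptor Tfrc (0.17) did not pass. The beta globin entry Beta-s had log2 fold change 0.47, SE 0.11, adjusted p = 0.011. Its reads can be shared with a near-identical copy, so this value is uncertain. Beta-s took 2.20 to 3.01% of the counts of each 10 °C library and so made up a large part of the summed level. Whether the groups separate without this entry was not tested. Erfe (Fam132b), the hormone by which erythroblasts lower hepcidin, was the only negative member at -0.47 and did not pass. Leaving out any 1 library gave 26 to 33 members called higher.

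Iron handling genes had 7 of 19 members higher and 1 lower, with a median of 0.16, and several of them serve red cell precursors. Steap3, the endosomal ferrireductase of erythroblasts, ran from 72.4 to 88.2 CPM at 22 °C (median 81.0) and 94.8 to 122 CPM at 10 °C (median 104) (log2 fold change 0.39, SE 0.07, adjusted p = 0.00349). Slc25a37, the mitochondrial iron importer mitoferrin 1, had log2 fold change 0.30, SE 0.06, adjusted p = 0.00555, and Slc11a2, the endosomal iron transporter, log2 fold change 0.27, SE 0.05, adjusted p = 0.0062; the groups of these 3 genes did not overlap. Fbxl5, which degrades iron regulatory protein 2, was the lower member (log2 fold change -0.32, SE 0.08, adjusted p = 0.0126). The count of 7 was 3 without 22 °C replicate 2 or 10 °C replicates 1, 5 or 6, and 4 without 22 °C replicate 5. Megakaryocyte and platelet genes had none of 23 members called higher, also none at an unadjusted p under 0.05 or by DESeq2, and 1 called lower, Nbeal2, a gene of platelet granules that neutrophils also use (log2 fold change -0.35, SE 0.07, adjusted p = 0.00666); 21 of the 23 were positive, with a median of 0.15, and the summed level ran from 2179.5 to 6145 CPM at 22 °C (median 4295) and 3364 to 5126 CPM at 10 °C (median 4748), with overlap.

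Stem and progenitor genes showed no common direction. The shares called were 11.1% higher and 11.1% lower, against 7.33% and 11.6% over all tested genes. Of 18 tested members 2 were higher, the factors Lmo2 (log2 fold change 0.17, SE 0.05, adjusted p = 0.0217) and Tal1 (log2 fold change 0.19, SE 0.06, adjusted p = 0.0444), which red cell precursors also express, and 2 were lower. The lower members were Flt3 (log2 fold change -0.24, SE 0.08, adjusted p = 0.0411) and Ifitm1, an interferon-inducible membrane protein, which ran from 16.5 to 43.3 CPM at 22 °C (median 27.7) and 11.5 to 16.9 CPM at 10 °C (median 13.4) (log2 fold change -1.06, SE 0.21, adjusted p = 0.00527). The stem cell factor receptor Kit had -0.03 and Cd34 -0.08, neither past the test, and the list's median was 0.08. The calls of Lmo2, Tal1 and Flt3 were each lost without at least 1 single library; Lmo2 only without 10 °C replicate 5 (adjusted p = 0.0517 in edgeR's quasi-likelihood test). Ifitm1 kept its call throughout. Cell cycle genes had 7 of 37 members higher, none lower and all 37 positive, with a median of 0.09. Among the members called higher, Gins2, a part of the replicative helicase, ran from 21.6 to 25.6 CPM at 22 °C (median 23.4) and 26.2 to 29.4 CPM at 10 °C (median 27.4) (log2 fold change 0.23, SE 0.05, adjusted p = 0.011), and Cdt1, which loads that helicase, from 129 to 159 CPM at 22 °C (median 137) and 151 to 185 CPM at 10 °C (median 159) (log2 fold change 0.22, SE 0.06, adjusted p = 0.0163). Cdc6, Ccne1, Mcm2, Mcm4 and Ube2c were the others. The count of 7 was 2 without 10 °C replicate 1, 3 without 22 °C replicate 1, 4 without 22 °C replicate 5 or 10 °C replicates 2 or 5, 12 without 22 °C replicate 6 and 14 without 10 °C replicate 4, and it was 15 by DESeq2 and 14 with library totals alone as the scale.

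Genes of bone cells, stroma, vessels and fat cells were mostly positive in sign, with few calls and wide spread at 22 °C. For comparison, 7.33% of all tested genes were called higher and 11.6% lower. Ctsk, the collagen-degrading protease of osteoclasts, ran from 3.95 to 13.1 CPM at 22 °C (median 9.90) and 9.77 to 39.9 CPM at 10 °C (median 23.3) (log2 fold change 1.41, SE 0.30, adjusted p = 0.00728) and had the largest log2 fold change of all called genes; it kept its call without any 1 library. Acp5, the tartrate-resistant phosphatase of osteoclasts, ran from 103 to 134 CPM at 22 °C (median 114) and 129.7 to 166 CPM at 10 °C (median 161) (log2 fold change 0.41, SE 0.07, adjusted p = 0.00372). Tcirg1, a subunit of the osteoclast proton pump that other marrow cells also express, was lower (log2 fold change -0.27, SE 0.06, adjusted p = 0.00605). In all, 3 of 11 tested osteoclast genes were higher and 1 was lower, with Car2 the third of those higher. Bone formation genes had 3 of 12 members higher and none lower, with a median of 0.46: Col1a1, the main collagen chain of bone, ran from 9.95 to 61.7 CPM at 22 °C (median 13.7) and 33.9 to 87.6 CPM at 10 °C (median 37.9) (log2 fold change 1.26, SE 0.42, adjusted p = 0.0484), Alpl, the phosphatase of mineralising cells, from 3.83 to 8.58 CPM at 22 °C (median 4.45) and 6.32 to 8.08 CPM at 10 °C (median 7.29) (log2 fold change 0.50, SE 0.16, adjusted p = 0.0474), and Postn, a matrix protein of the bone surface, had log2 fold change 0.70, SE 0.23, adjusted p = 0.0464. The ranges of Col1a1 and Alpl overlapped, since 22 °C replicate 3 held 61.7 CPM of Col1a1 against 9.95 to 20.4 CPM in the other 22 °C libraries.

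The bone formation calls changed with single libraries. Without 22 °C replicate 3, a library with a muscle trace, 8 members were higher and the log2 fold change of Col1a1 was 1.92; 1 was without 22 °C replicate 1 or 10 °C replicates 3, 4 or 6, and none was without any other single library. With library totals alone as the scale none passed, with relative log expression factors 1 did, and with both muscle-trace libraries left out 7 did. Endothelial genes had 1 of 18 members higher, the transforming growth factor coreceptor Eng (log2 fold change 0.35, SE 0.10, adjusted p = 0.0273), and 17 of 18 positive, with a median of 0.28; 8 were higher without 22 °C replicate 3, 2 without 10 °C replicate 4 and none without 22 °C replicates 2 or 6 or 10 °C replicates 1 or 6. Niche stroma genes had 2 of 18 higher, Cxcl14 (log2 fold change 0.63, SE 0.19, adjusted p = 0.0292) and Vcam1 (log2 fold change 0.31, SE 0.10, adjusted p = 0.0467), and 1 lower, Csf1 (log2 fold change -0.30, SE 0.08, adjusted p = 0.0257), while Cxcl12, the chemokine that retains stem cells and neutrophils, had log2 fold change 0.17, SE 0.22, adjusted p = 0.624 and its receptor Cxcr4 log2 fold change 0.00, SE 0.06, adjusted p = 0.978, neither past the test. Adipocyte genes had 2 of 9 higher, Adipoq (log2 fold change 0.58, SE 0.18, adjusted p = 0.0389) and Pparg (log2 fold change 0.52, SE 0.15, adjusted p = 0.0243), and 1 lower, the lipase Lipe (log2 fold change -0.24, SE 0.07, adjusted p = 0.0319). The stroma and fat cell calls were lost without several single libraries, with 0 to 4 members higher in each list. Shares called higher were 5.56% of endothelial, 11.1% of niche stroma and 22.2% of adipocyte genes, against 7.33% of all tested genes. Shares called lower were 5.56% of niche stroma and 11.1% of adipocyte genes, against 11.6% of all tested genes. Skeletal muscle genes had 1 of 20 lower (Tnnt1, which lost its call without any of 9 libraries in turn) and a median of -0.33; without 10 °C replicate 4, which held the highest muscle level of its group, 10 were called lower, and with both muscle-trace libraries left out 7 were.

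**Figure D4:**
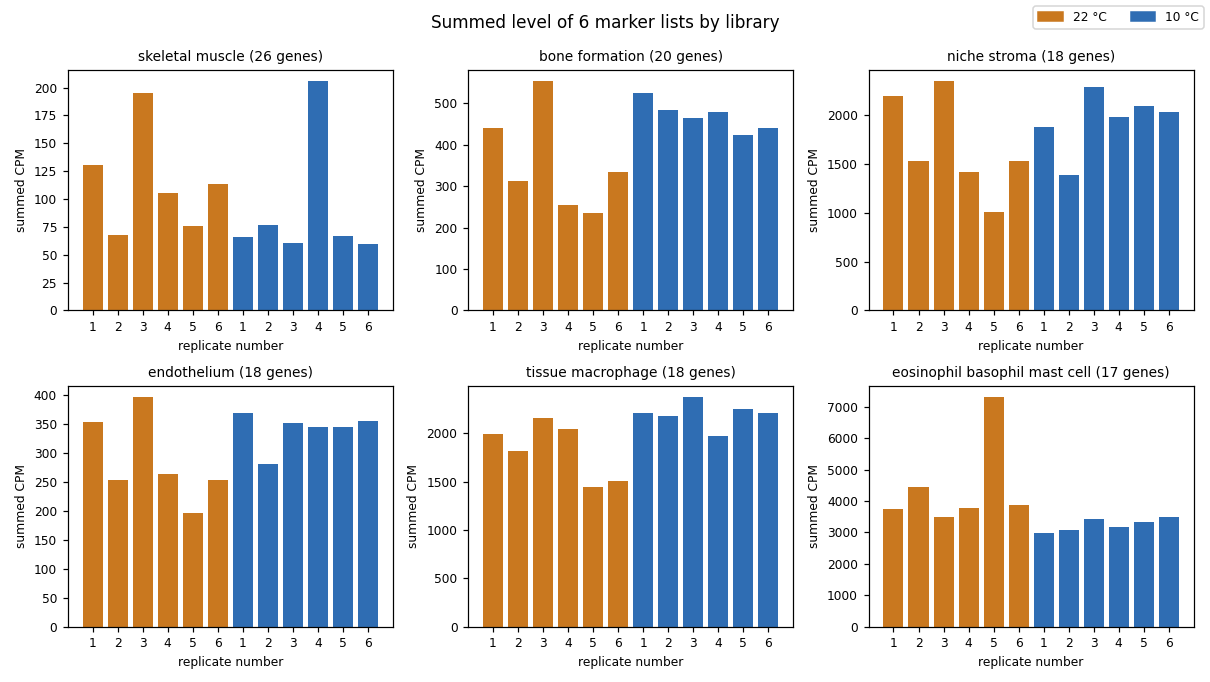
Summed CPM of 6 marker lists in each of the 12 libraries, with replicate numbers on the horizontal axis and bars starting at 0. Skeletal muscle genes peak at 195 CPM in 22 °C replicate 3 and 206 CPM in 10 °C replicate 4, bone formation, stroma and endothelial genes are highest in 22 °C replicate 3, and eosinophil, basophil and mast cell genes reach 7303 CPM in 22 °C replicate 5.

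Calls among genes known to follow body temperature, the clock and stress hormones were near or below the shares over all tested genes (7.33% higher, 11.6% lower). The clock and glucocorticoid-responsive lists each had 6.25% of members called higher and 12.5% called lower. The cold-inducible RNA-binding proteins Rbm3 and Cirbp did not pass edgeR's test at an adjusted or an unadjusted p under 0.05, nor DESeq2's: Rbm3 ran from 77.8 to 98.3 CPM at 22 °C (median 94.5) and 85.7 to 109 CPM at 10 °C (median 93.4) (log2 fold change 0.07, SE 0.07, adjusted p = 0.556), and Cirbp had log2 fold change -0.01, SE 0.15, adjusted p = 0.974, with a sign that turned under other scaling. Heat shock and chaperone genes had 2 of 21 members higher, Dnajb4 (log2 fold change 0.25, SE 0.05, adjusted p = 0.00735) and the mitochondrial chaperonin Hspd1 (log2 fold change 0.14, SE 0.05, adjusted p = 0.0484), and only Dnajb4 kept its call without any 1 library. Of these 21 members, 18 were positive, with a median of 0.11. At an unadjusted p under 0.05, 7 were higher and 0 lower, and edgeR's exact test called 5 higher. Among 16 clock genes, the repressors Per2 (log2 fold change -0.32, SE 0.07, adjusted p = 0.0105) and Cry1 (log2 fold change -0.19, SE 0.06, adjusted p = 0.0429) were lower and the activator Arntl (log2 fold change 0.24, SE 0.07, adjusted p = 0.0348) was higher; Per2 alone of the 3 kept its call without any 1 library. Among 16 glucocorticoid-responsive genes, Il1r2 and Cebpd, both of which neutrophils express, were lower (4 members without 22 °C replicate 3, and 1 without 22 °C replicates 5 or 6 or 10 °C replicates 1 or 2), the metallothionein Mt2 (log2 fold change 0.46, SE 0.10, adjusted p = 0.0083) was higher, and Fkbp5 (-0.15), Tsc22d3 (0.23) and Per1 (-0.01) did not pass. Immediate early genes had 1 of 19 higher (Btg2) and 1 lower (Klf4), with Fos at 0.63 and Egr1 at 0.73 not past the test; Btg2 kept its call only without 22 °C replicate 2 or 10 °C replicate 2, and 2 members were lower without 22 °C replicate 1 and 3 without 22 °C replicate 3. The unfolded protein and integrated stress list had 2 of 22 higher, Atf4 (0.21) and Ddit3 (0.19), and 1 lower, the cystine transporter Slc7a11 (-0.48), and each of these calls was lost without 10 °C replicate 1, while 3 members were lower without 22 °C replicate 3.

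The lipogenesis members called higher were desaturases. Fads1 and Fads2, the desaturases that make polyunsaturated fatty acids, were higher: Fads1 ran from 56.3 to 65.8 CPM at 22 °C (median 61.3) and 72.7 to 89.4 CPM at 10 °C (median 73.6) (log2 fold change 0.33, SE 0.06, adjusted p = 0.00363), and Fads2 from 18.7 to 24.9 CPM at 22 °C (median 22.5) and 26.3 to 33.0 CPM at 10 °C (median 29.2) (log2 fold change 0.42, SE 0.07, adjusted p = 0.00372), without overlap in either gene. The stearoyl desaturase Scd1 was the third member of 11 lipogenesis genes called higher (log2 fold change 0.29, SE 0.08, adjusted p = 0.0261), though not without 22 °C replicates 1, 2 or 6 or 10 °C replicate 2, while fatty acid synthase (Fasn, 0.06) and Acaca (-0.15) did not pass. Sterol synthesis genes had 4 of 21 higher and none lower, with a median of 0.09. Sqle, squalene epoxidase, ran from 21.2 to 26.3 CPM at 22 °C (median 22.4) and 27.7 to 32.6 CPM at 10 °C (median 30.2) (log2 fold change 0.37, SE 0.07, adjusted p = 0.00402), and Cyp51, Fdft1 and Insig1 had 0.23, 0.26 and 0.22. The count of 4 was 1 without 22 °C replicate 6. Of 13 genes for homing and release, 5 were lower, among them Cxcr2, Csf3r, Ccr2 and Selplg, and 1 was higher (Vcam1). Of all tested genes, 11.6% were called lower and 7.33% higher. Cxcr2 and Csf3r are also counted in the mature neutrophil list and Ccr2 in the monocyte list. Vcam1 is also in the tissue macrophage and niche stroma lists. The 5 became 2 without 10 °C replicate 1 and 3 without 22 °C replicate 2, while Vcam1 kept its call only without 22 °C replicate 1 or 3.

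Outside these lists, the named genes with the largest changes among those whose groups did not overlap were as follows. Scn4b, a sodium channel beta subunit, ran from 2.30 to 4.74 CPM at 22 °C (median 2.90) and 5.55 to 7.44 CPM at 10 °C (median 6.11) (log2 fold change 0.96, SE 0.17, adjusted p = 0.00366). Foxh1, a transcription factor of nodal signalling, was near the filter at 0.556 to 0.866 CPM at 22 °C (median 0.618) and 0.931 to 1.74 CPM at 10 °C (median 1.30) (log2 fold change 0.92, SE 0.21, adjusted p = 0.00984). Bcat1, which starts the breakdown of branched-chain amino acids, ran from 3.43 to 5.70 CPM at 22 °C (median 3.84) and 6.13 to 7.57 CPM at 10 °C (median 6.75) (log2 fold change 0.70, SE 0.13, adjusted p = 0.00397), and Ptpn13, a tyrosine phosphatase, from 6.49 to 12.0 CPM at 22 °C (median 7.92) and 12.7 to 15.4 CPM at 10 °C (median 13.7) (log2 fold change 0.70, SE 0.13, adjusted p = 0.00424). Higher by 0.70 to 0.77 on the log2 scale were also Cbr2, Liph, Sit1, Egfl6 and 1700048O20Rik, of which Liph lost its call without 22 °C replicates 2, 4 or 5 or 10 °C replicates 2, 3 or 6. On the lower side, Apol11a, an apolipoprotein L family member (chr15:77508271-77518051), ran from 5.70 to 10.6 CPM at 22 °C (median 6.68) and 2.601 to 3.94 CPM at 10 °C (median 3.29) (log2 fold change -1.16, SE 0.16, adjusted p = 0.00274), and Ggt1, the gamma-glutamyltransferase of glutathione turnover, from 3.64 to 6.41 CPM at 22 °C (median 4.50) and 2.03 to 3.19 CPM at 10 °C (median 2.25) (log2 fold change -1.001, SE 0.17, adjusted p = 0.00354). I830012O16Rik had log2 fold change -0.99, SE 0.20, adjusted p = 0.00605, and Ankrd66, Pydc4, Gm19705 and Pnpla1 had -0.82, -0.78, -0.74 and -0.72.

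The smallest p-values also fell on genes with modest changes and tight replicates. Mboat2, a lysophospholipid acyltransferase, ran from 24.3 to 28.6 CPM at 22 °C (median 27.7) and 35.6 to 41.9 CPM at 10 °C (median 37.0) (log2 fold change 0.49, SE 0.06, adjusted p = 0.00113), and Dennd2c, an exchange factor for Rab proteins, from 41.3 to 49.4 CPM at 22 °C (median 46.6) and 55.5 to 60.1 CPM at 10 °C (median 58.4) (log2 fold change 0.34, SE 0.05, adjusted p = 0.00274); both were higher without overlap. Lower without overlap were Hsd11b1, the enzyme that regenerates active glucocorticoid, at 64.5 to 90.3 CPM at 22 °C (median 80.8) and 51.4 to 57.0 CPM at 10 °C (median 53.4) (log2 fold change -0.53, SE 0.07, adjusted p = 0.00274), Slfn5, of the interferon-inducible Schlafen family, at 65.7 to 93.6 CPM at 22 °C (median 83.2) and 51.2 to 60.9 CPM at 10 °C (median 56.1) (log2 fold change -0.56, SE 0.08, adjusted p = 0.00274), and Prom1, the membrane protein CD133 (log2 fold change -0.43, SE 0.06, adjusted p = 0.00274). AI607873 had log2 fold change -0.59, SE 0.08, adjusted p = 0.00274. Each of these 6 genes kept its call without any 1 library.

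Of 5 genes that the study named as shared across tissues, none passed the adjusted test over all 12 libraries, and none was called by DESeq2. Only 1, Hspa1b, had an unadjusted p under 0.05, and it was called by edgeR's exact test. With a fold above 1.5 as well, Hspa1b was within the study's own limits, as higher. The study lists bone marrow among the tissues in which Atp2a1 was decreased. Over all 12 libraries here, Atp2a1 was negative in sign but not within those limits. Atp2a1 was called lower without 10 °C replicate 4 and without both muscle-trace libraries. Atp2a1, the calcium pump of fast muscle, was 17.6 CPM in 10 °C replicate 4 and 1.79 to 3.45 CPM in the other 10 °C libraries, and over all libraries it had log2 fold change -0.62, SE 0.53, adjusted p = 0.454. Without 10 °C replicate 4 its log2 fold change was -1.64 (adjusted p = 0.00868, edgeR's quasi-likelihood test), without both muscle-trace libraries -1.27 (adjusted p = 0.00307), and without 22 °C replicate 3, which held 16.7 CPM, -0.25 (adjusted p = 0.763). Nr1d1, the clock repressor REV-ERB alpha, had log2 fold change -0.01, SE 0.27, adjusted p = 0.987, with a sign that turned under other settings. Hspa1b, an inducible heat shock protein, ran from 0.588 to 1.36 CPM at 22 °C (median 0.857) and 0.602 to 9.01 CPM at 10 °C (median 0.959) (log2 fold change 1.67, SE 0.66, adjusted p = 0.0921), and its ranges overlapped; without 10 °C replicate 4 its log2 fold change was 0.88. Nnat and Thrsp were below the filter on low values and were not tested.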

How the data were processed

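Poly(A) RNA of bone marrow from 12 mice, 6 per temperature, was sequenced as 50-base single reads from stranded libraries. The deposited values are raw read counts per gene, made by the authors with alignment to mm10 and counting by HTSeq; per the labels' processing notes the tools were STAR 2.5.3a, Picard 1.141 and HTSeq 0.6p1, while the study's methods name later versions of STAR and HTSeq, and whether counting used the strand is not given in the sources used here. Marrow was flushed and RNA extracted per mouse; no date or batch is given, so no batch could be examined. Groups came from the sample titles, and 42 columns of other tissues in the tables read were not used.

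Counts were fitted with edgeR 4.0.16 in R 4.3.3 (TMM scaling, quasi-likelihood F test, 12525 genes with an average log2 CPM above 0, Benjamini-Hochberg adjustment over all of them); called means an adjusted p under 0.05. Fold changes are log2, 10 °C over 22 °C, with their standard errors. On counts simulated for this comparison with 12473 genes, 72% of genes changed by 0.5 and 94.8% of those changed by 1 on the log2 scale were called. Members of 34 gene lists were matched by symbol: 602 of 626 directly and 12 through an older symbol, and 565 were tested. Named genes were the 12 largest changes in each direction among called genes whose groups did not overlap, the 10 smallest p-values, up to 4 called members of each list by p (otherwise the 2 with the highest CPM) and 5 genes named by the study; other list members are given by values only. The lists, the named genes and the comparison were chosen with earlier results of these data known. Libraries of 1 group differed beyond counting noise (smallest chi-square per degree of freedom 2.29), so none was treated as a duplicate. The p-values measure the spread between mice and take no account of the cages that mice shared in pairs. Alternatives were edgeR's exact test, DESeq2 1.42.0, other scaling and filters, leaving out each library, leaving out both muscle-trace libraries, and a replicate block. Gene positions are from GENCODE M21 (GRCm38) and promoters from RefSeq (GRCm38.p6). Some members counted in the lists are not reported here by name.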

Additional observations from a re-analysis of the deposited data

Results flagged for a closer look

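Of 330 sets of 6 values (the summed level of each list and the level of each named gene in each group), 21 (6.36%) had a library far from the other 5 of its group by Dixon's test at the 95% level, which chance gives in about 1 in 20 sets. In the 22 °C group, replicate 5 held 7303 CPM of eosinophil, basophil and mast cell genes against 3490 to 4459 CPM in the others, 121 CPM of Ear6 against 51.0 to 61.7 CPM and 40.8 CPM of Siglec5 against 23.7 to 28.4 CPM, and it had the lowest Cbr2 at 2.66 CPM against 3.50 to 3.87 CPM. In replicate 3 of that group the bone genes Col1a1 at 61.7 CPM and Alpl at 8.58 CPM stood above the other libraries at 9.95 to 20.4 CPM and 3.83 to 5.45 CPM. Replicate 1 of that group had the lowest iron handling sum at 5908 CPM against 6610 to 6919 CPM, the lowest Rhd at 401 CPM against 463 to 491 CPM, and the highest Sit1 at 3.03 CPM against 1.98 to 2.35 CPM.

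In the 10 °C group, replicate 4 held 206 CPM of skeletal muscle genes against 59.9 to 77.1 CPM, 17.6 CPM of Atp2a1 against 1.79 to 3.45 CPM and 30.3 CPM of the 5 study-named genes against 6.09 to 11.9 CPM. Replicate 1 of that group was lowest in the monocyte sum, 3292 CPM against 3568 to 3663 CPM, and in Igsf6, 203 CPM against 221 to 231 CPM. It was highest in Cdt1 at 185 CPM against 151 to 163 CPM, in Cdc6 at 214 CPM against 174 to 184 CPM, in Fads1 at 89.4 CPM against 72.7 to 77.7 CPM and in Ddit3 at 35.2 CPM against 27.7 to 30.2 CPM. Replicate 2 was lowest in the endothelial sum, 280.4 CPM against 344 to 368 CPM, and in Adipoq, 15.6 CPM against 22.7 to 24.2 CPM, and replicate 3 was highest in Selplg, 333 CPM against 279.5 to 299 CPM.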

How the results depend on the processing

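None of the 2377 called genes changed sign under any alternative that tested it. The counts of genes higher and lower at an adjusted p under 0.05 (918 and 1459) were 808 to 1123 and 1248 to 1676 under the exact test, DESeq2, library totals alone, relative log expression factors, edgeR's own filter and no filter; those of the study's limits (81 and 81) were 79 to 102 and 66 to 103 except without a filter, where they were 240 and 212, since more low genes were then tested. Leaving out 1 library gave 517 (without 10 °C replicate 1) to 1218 (without 22 °C replicate 3) genes higher, 956 (without 10 °C replicate 1) to 1769 (without 22 °C replicate 3) lower, and 53 (without 22 °C replicate 5) to 189 (without 22 °C replicate 3) higher and 55 to 119 lower at the study's limits; of the 2377 called genes, 1464 (without 10 °C replicate 1) to 2312 (without 22 °C replicate 3) were called. Without both muscle-trace libraries, 187 genes were higher and 159 lower at the study's limits. The cause of these shifts was not tested. Of 123 named genes called, 79 were called under every alternative. The log2 fold change of Cirbp, -0.01, was 0.0079 with library totals alone, 0.0718 without both muscle-trace libraries and -0.13 to 0.0536 without 1 library; that of Nr1d1, -0.01, was 0.00043, 0.27 and -0.19 to 0.24 in the same order.

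No pairing by replicate number was seen in the levels: deviations of same-numbered libraries correlated at -0.188 to 0.0857, and no 22 °C library matched best the 10 °C library of its own number. Such correlations cannot show whether the numbers follow cage or order of handling. A fit with the replicate number as a block gave 443 genes higher and 896 lower, 90 and 68 at the study's limits, and called 1312 of the 2377 genes; in this block fit the log2 fold change of Nr1d1 was 0.0838, and 18 of 41 erythroid, 19 of 24 B cell precursor, 17 of 18 secondary granule and 19 of 31 interferon-stimulated genes were called.

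Depth limits genes near the filter, such as Foxh1 and Folr2, and changes of 0.5 on the log2 scale were called in 72% of simulated cases, so a gene not called is not shown to be unchanged.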

Other observations

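Several gene families that the lists left out, or covered only in part, also held called genes. These families were picked after their values had been seen. Over all tested genes, 7.33% were called higher and 11.6% lower. Of 9 tested Schlafen (Slfn) genes, which respond to interferon and act in myeloid and lymphoid cells, 6 were lower and 1, Slfn14-ps, was higher, with a median log2 fold change of -0.43. All 3 tested Trim30 genes were lower (median -0.50), and 5 of 11 Ms4a genes were lower while Ms4a1, the B cell antigen CD20, was higher; Ms4a3, Ms4a6c and Ms4a1, which are among these, also belong to the primary granule, monocyte and mature B cell lists. Of 11 toll-like receptor genes 4 were lower (Tlr4, Tlr5, Tlr6 and Tlr13) and none was higher, with a median of -0.19. The immunoproteasome subunits Psmb8 and Psmb9 were the only members lower among 39 tested proteasome genes, of which Psmd1, Psmd3 and Psmd9 were higher. These proteasome counts were near or below the shares over all tested genes. Large housekeeping families stayed near 0: 69 ribosomal protein genes had a median of 0.07 with 4 higher and 3 lower, and 43 complex I subunit genes had a median of 0.04 with 1 higher and 1 lower.

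Spleen, the other blood-forming tissue of the series, had 3 libraries per temperature, each from a pool of mice and normalised separately, and 3 against 3 libraries cannot give an exact permutation p below 0.1. By the study's methods, spleen also differed from bone marrow in RNA extraction, library kit, sequencer and sequencing site. The summed level of mature neutrophil genes there was 1302, 1674 and 1531 CPM at 22 °C and 1124, 1004 and 1022 CPM at 10 °C, and that of interferon-stimulated genes 2249, 2674 and 2406 CPM at 22 °C and 2226, 2183 and 2183 CPM at 10 °C; in both the 10 °C libraries lay below the 22 °C libraries. Erythroid genes summed to 20546, 39773 and 41975 CPM at 22 °C and 18379, 25317 and 31126 CPM at 10 °C, and B cell precursor genes to 3219.6, 2768 and 2624 CPM at 22 °C and 3159, 3282 and 3118 CPM at 10 °C, and in both the groups overlapped. Secondary granule genes summed to 2240.3, 2290.4 and 2269.6 CPM at 22 °C and 2332, 1916 and 1721 CPM at 10 °C in spleen, with the highest value in a 10 °C library. The monocyte and eosinophil, basophil and mast cell sums overlapped between groups too. Among the secondary granule genes given by range above, Camp was 17.1 to 38.6 CPM at 22 °C and 3.16 to 5.03 CPM at 10 °C in spleen. Chi3l3 and Itgb2l were also lower there in every 10 °C library, while Orm1 overlapped. Primary granule genes summed to 320, 349 and 340 CPM at 22 °C and 316, 294 and 299 CPM at 10 °C, without overlap. The difference between the tissues was not tested.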
